A study of Mus musculus with 15 samples.

Results

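Microtubules are hollow polymers of alpha and beta tubulin, and mammals encode several versions of each protein, called isotypes, in separate genes. The expression of 10 such genes was followed in sorted mouse thalamic cells: the alpha tubulins Tuba1a, Tuba1b, Tuba1c and Tuba4a and the beta tubulins Tubb2a, Tubb2b, Tubb3, Tubb4a, Tubb5 and Tubb6. They were taken as the rows of the deposited array table annotated with exactly 1 of these symbols. There were 13 such rows among 33794, and they named 9 of the 10 genes, since Tuba4a shares its row with another gene. Tuba1a, Tuba1c, Tubb2b and Tubb5 have 2 rows each and the other 5 genes have 1. The family was chosen by the level of Tuba1c, which was much higher in E14.5 green cells than in the other groups, so the level of Tuba1c in that group is given as a description and without a test.

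Dividing and differentiating neural cells draw on the same pool of tubulin genes in different proportions. Tuba1a is the alpha tubulin characteristic of developing neurons, Tuba1b is widely expressed, and Tuba1c is an alpha tubulin that is low in mature brain. Among the beta tubulins, Tubb2a and Tubb2b serve neurons and migrating neuroblasts, Tubb3 is the classical marker of newly formed neurons, Tubb5 is abundant in both progenitors and neurons, Tubb4a becomes prominent in myelinating cells and late in brain maturation, and Tubb6 is a minor brain isotype.

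RNA came from thalamic cells isolated by fluorescence-activated sorting from embryos of the genotype Gbx2CreER-IRES-EGFP/+::R26lsl-tdTomato/+ on a C57BL/6 background. All 5 groups therefore carried 1 modified Gbx2 allele, which drives EGFP (green) and a tamoxifen-dependent Cre in Gbx2-expressing thalamic cells, and a Rosa26 reporter that turns on tdTomato (red) permanently in cells with active Cre and in their progeny. At E18.5 the sort gave green, red and double labelled cells, after 4 mg tamoxifen to the dam at E9. Green and red cells were sorted at E14.5 after the same dose at E9.5, so stage and day of tamoxifen cannot be told apart. Each group had 3 biological replicates, each on its own array, and 15 arrays were read in all. How many embryos went into a replicate and where the sorting gates lay is not given in the sources used here.

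Values are log2 signals as deposited, and a log2 difference of 1 is a 2-fold change. Differences were tested with limma over 16635 genes, and a gene is said to have changed where its Benjamini-Hochberg adjusted p is under 0.05. Where groups are said not to overlap, this is a description, and the share of all genes without overlap was not counted. For a gene with 2 rows the test used the row with the higher mean, and all 9 genes with a row passed the filter on low values. Array means were 6.17 to 6.19 on the 9 E18.5 arrays and 5.63 to 5.65 on the 6 E14.5 arrays, so comparisons of stages are also given with each array's median subtracted and, for tested rows that the results turn on, after quantile normalization. E18.5 red replicate 1 and E18.5 double labelled replicate 1 had a narrower range of values than the other 7 E18.5 arrays, with an SD of 1.31 to 1.34 against 1.44 to 1.51, and are called the narrow-range arrays. Thalamic transcription factors lay on average 1.90 to 2.80 above the array median in the 5 groups, while microglial genes lay between -0.01 and 0.08 of it. In bulk samples, fewer cells of a type and less RNA per cell cannot be told apart.

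Tuba1b, Tuba1a and Tuba1c lie next to each other on chromosome 15, and their upstream sequences are shown because Tuba1c alone of the 3 was much higher in E14.5 green cells. Tubb2a is added as the beta tubulin that differed in the opposite direction. Each sequence is the RefSeq promoter window on GRCm38.p6, from 250 bases before to 50 after the annotated start. Windows of 8 of the 10 listed genes were searched. Capitals mark matches to 4 letter strings searched on both strands. They were TATAA, the core of a TATA box, then CCAAT, the letters of a CCAAT box, then GGGCGG, a GC box, and last TGACGTCA, a cAMP response element. The windows are chr15:98934341-98934640 on the minus strand for Tuba1b, chr15:98953452-98953751 on the minus strand for Tuba1a, chr15:99029641-99029940 on the plus strand for Tuba1c and chr13:34077959-34078258 on the minus strand for Tubb2a.
Tuba1b: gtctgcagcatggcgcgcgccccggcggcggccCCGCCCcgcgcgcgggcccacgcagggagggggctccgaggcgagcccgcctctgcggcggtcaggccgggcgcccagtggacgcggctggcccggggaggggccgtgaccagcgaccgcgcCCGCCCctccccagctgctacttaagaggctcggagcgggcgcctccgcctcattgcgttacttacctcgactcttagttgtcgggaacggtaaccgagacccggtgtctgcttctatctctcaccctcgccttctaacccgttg
Tuba1a: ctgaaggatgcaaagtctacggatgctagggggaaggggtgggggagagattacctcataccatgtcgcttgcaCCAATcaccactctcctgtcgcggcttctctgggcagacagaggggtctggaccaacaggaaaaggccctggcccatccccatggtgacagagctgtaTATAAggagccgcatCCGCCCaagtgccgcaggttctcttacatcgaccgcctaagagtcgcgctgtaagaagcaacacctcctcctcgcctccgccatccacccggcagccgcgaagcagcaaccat
Tuba1c: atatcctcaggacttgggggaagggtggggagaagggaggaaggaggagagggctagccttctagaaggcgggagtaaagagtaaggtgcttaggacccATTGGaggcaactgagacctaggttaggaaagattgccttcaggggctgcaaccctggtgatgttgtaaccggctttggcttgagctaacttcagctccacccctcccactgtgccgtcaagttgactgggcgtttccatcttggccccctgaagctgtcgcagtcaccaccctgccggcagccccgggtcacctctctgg
Tubb2a: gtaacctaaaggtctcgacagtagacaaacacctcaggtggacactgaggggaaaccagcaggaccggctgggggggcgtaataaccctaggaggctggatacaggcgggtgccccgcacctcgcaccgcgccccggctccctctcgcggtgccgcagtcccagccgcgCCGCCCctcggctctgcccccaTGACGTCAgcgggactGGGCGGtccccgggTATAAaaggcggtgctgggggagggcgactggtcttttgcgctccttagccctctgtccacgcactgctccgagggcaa
The Tuba1c window held 1 of the 4 strings, a CCAAT on the minus strand 151 bases before the start. Tuba1a held a TATAA 78 bases before its start, a CCAAT at 176 and a GGGCGG on the minus strand at 63. Tuba1b held GGGCGG on the minus strand at 217 and 95 bases before its start and none of the other strings. Tubb2a held a TATAA 29 bases before its start, GGGCGG at 43 and, on the minus strand, at 81, and the palindrome TGACGTCA at 59. Among all 32851 RefSeq windows of this length, TATAA was present in 24.9%, CCAAT in 37.4%, GGGCGG in 35.7% and TGACGTCA in 1.79%. These are matches of letters only, and no binding was measured here.

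Tuba1c stood highest in green cells at E14.5. In its tested row (17321481) the 3 E14.5 green arrays read 10.06, 9.81 and 10.18, and the 3 E14.5 red arrays read 7.31, 7.42 and 7.75. At E18.5 green cells read 7.32, 5.92 and 6.75, double labelled cells 9.06, 6.21 and 7.52, and red cells 8.37, 7.20 and 7.52. The lowest E14.5 green array was thus above every other array, the nearest being E18.5 double labelled replicate 1, a narrow-range array.

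The other Tuba1c row (17314693) was likewise highest in E14.5 green cells, with 7.75, 7.89 and 8.08 in E14.5 green and 5.42, 5.32 and 5.53 in E14.5 red cells. It read 5.66, 5.36 and 5.94 in E18.5 green, 7.59, 5.83 and 6.40 in double labelled and 6.09, 6.44 and 6.27 in E18.5 red cells. The Pearson r of the 2 rows over the 15 arrays, array medians subtracted, was 0.919. It includes the E14.5 green arrays, by which the family was chosen. Within groups the rows did not always move together. They ordered the E18.5 red replicates in opposite ways and the double labelled replicates in the same way. Means at E14.5 were 10.02 ± 0.19 in green and 7.50 ± 0.23 in red cells (SD, n = 3) in the tested row, a 5.74-fold difference, and 5.59-fold in the other row. Of 16635 genes, Tuba1c ranked 5 by its excess in green over red cells at E14.5, and 0 genes were as far apart in the opposite direction. The family was chosen by these values, so a high rank was fixed in advance and is given as a description only.

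**Figure D1:**
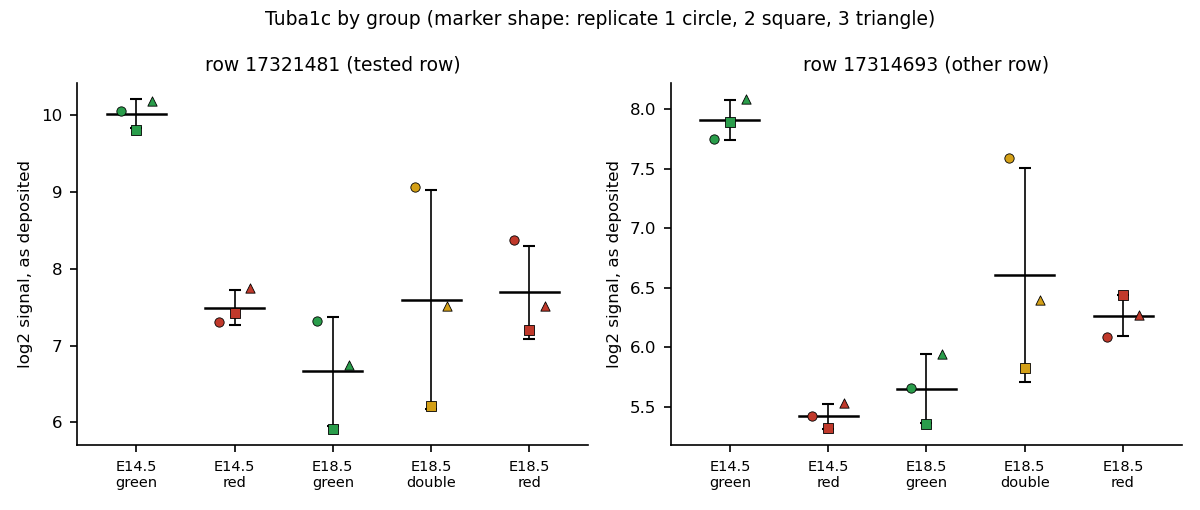
Log2 signal of Tuba1c as deposited (vertical axis) in the 5 groups (horizontal axis), in the tested row on the left and the other row on the right. Points are arrays, horizontal lines group means and bars SD of 3 arrays; the E14.5 green arrays, at 9.81 to 10.18 and 7.75 to 8.08, lie above all 12 others in both rows.

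From E14.5 to E18.5, Tuba1c in green cells went from 10.02 ± 0.19 to 6.66 ± 0.71, a log2 difference of -3.36, or 10.2-fold, with -3.98 after subtracting array medians and -3.92 after quantile normalization. In red cells the tested row differed by 0.20 between the stages (SE 0.54, limma adjusted p = 0.75), by -0.47 with array medians subtracted and by -0.37 after quantile normalization. The other row was higher by 0.85 in E18.5 red cells on the deposited scale (SE 0.31, adjusted p = 0.026), where the median gene was higher by 0.596. With array medians subtracted that row went from 0.24 to 0.42, a difference of 0.18. Relative to the array median, the order of group means in the tested row was E14.5 green (4.87), E14.5 red (2.32), E18.5 red (1.85), double labelled (1.78) and E18.5 green (0.89). Only the first of these stood clear, since the arrays of each later group overlapped those of its neighbour in the order. The other row ordered the groups as E14.5 green (2.76), double labelled (0.79), E18.5 red (0.42), E14.5 red (0.24) and E18.5 green (-0.12).

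At E18.5, Tuba1c was at 7.69 ± 0.60 in red, 7.60 ± 1.42 in double labelled and 6.66 ± 0.71 in green cells. Red exceeded green by 1.03 (SE 0.54, limma adjusted p = 0.53), and by 0.70 without the narrow-range arrays (adjusted p = 0.53). In the other row red was above green by 0.61 (SE 0.31, adjusted p = 0.52), and the 3 red arrays did not overlap the 3 green ones. The double labelled cells exceeded green by 0.94 (adjusted p = 0.84), a value that fell to 0.21 without the narrow-range arrays. In the tested row, the replicates of each of these groups spread over more than the distance between the group means.

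None of the genes beside Tuba1c on the chromosome that were tested changed at E14.5. In RefSeq order, Lmbr1l, Tuba1b and Tuba1a lie before it and Prph and Troap after it. Their red minus green differences at E14.5 were -0.16, 0.08, 0.13, 0.15 and -0.34, with limma adjusted p between 0.25 and 0.91, against -2.52 for Tuba1c. Tuba1b read 11.78, 11.69 and 11.80 in E14.5 green and 11.95, 11.75 and 11.80 in E14.5 red cells, and its groups overlapped.

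The gene whose values most resembled those of Tuba1c over the 15 arrays, array medians subtracted, was Mki67, which encodes the proliferation antigen Ki-67 (Pearson r 0.933). It was followed by the noncoding RNA Lockd (0.928), the AAA ATPase gene Fignl2 (0.905), the glycerate kinase gene Glyctk (0.905) and Cenpf, a kinetochore protein of dividing cells (0.894). All 15 arrays share the stage and colour groups, so these values describe a common group pattern, and no test was made. Within the 6 E14.5 arrays, the closest were Tpi1 (0.998), Stk39 (0.997), Atp10a (0.996), Tsc22d2 (0.996) and the antiproliferative gene Btg2 (0.995). These 6 arrays are green and red cells only, so these values also describe a group pattern. Btg2 averaged 6.71 in E14.5 green and 5.21 in E14.5 red cells, and Mki67 6.54 and 5.37. For the others green exceeded red at E14.5 by 0.49 (Tpi1), 0.61 (Stk39), 0.21 (Atp10a) and 0.15 (Tsc22d2). The excess was 0.64 for Lockd, 0.48 for Fignl2, 0.91 for Glyctk and 0.92 for Cenpf.

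Of the 8 tubulins tested between E14.5 red and green cells, Tubb2a, a beta tubulin of neurons, changed, and it was higher in red cells. Tubb2a read 9.48, 9.30 and 9.17 in green and 9.74, 9.73 and 10.22 in red cells. The groups did not overlap, and the difference was 0.58, or 1.49-fold (SE 0.13, limma adjusted p = 0.028). In this comparison 3.52% of all genes changed (314 higher and 272 lower in red cells, or 191 and 254 with array medians subtracted), and 1 of the 8 tubulins did, with a median difference of 0.10 over the 8 against 0.0 over all genes. The Tubb2a call was lost with array medians subtracted (adjusted p = 0.11) and kept after quantile normalization (adjusted p = 0.0052). It was also lost without green replicate 2 (adjusted p = 0.11), green replicate 3 (0.17) or red replicate 3 (0.11), where the difference was 0.57, 0.51 and 0.42.

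Tubb2b, whose protein is nearly identical to that of Tubb2a, pointed the same way in 1 of its 2 rows. Its tested row read 10.79, 10.76 and 10.72 in green and 11.65, 11.11 and 11.40 in red cells, which did not overlap. The difference of 0.63 (SE 0.22) had an adjusted p of 0.21 in the limma fit to all arrays, and of 0.0054 without the narrow-range arrays, which are E18.5 arrays that enter only through the shared spread. Its other row read 10.57, 10.36 and 10.27 in green and 10.38, 10.43 and 10.71 in red cells, a difference of 0.11 (adjusted p = 0.96). Genes this similar can hybridize to the same probes, so the signals of Tubb2a and Tubb2b, and those of Tuba1a, Tuba1b and Tuba1c, are uncertain as measures of 1 gene.

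Tubb4a, in contrast, had lower values in E14.5 red than green cells, 6.16, 6.32 and 6.73 against 6.78, 7.20 and 6.76. The groups did not overlap, and the difference of -0.51 (SE 0.22) did not pass (limma adjusted p = 0.34). Tuba1a, Tuba1b, Tubb3, Tubb5 and Tubb6 differed by -0.01 to 0.13 in their tested rows. Tubb3, the marker of newly formed neurons, read 11.27, 11.32 and 11.20 in green and 11.37, 11.40 and 11.31 in red cells, a difference of 0.09 (SE 0.15).

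**Figure D2:**
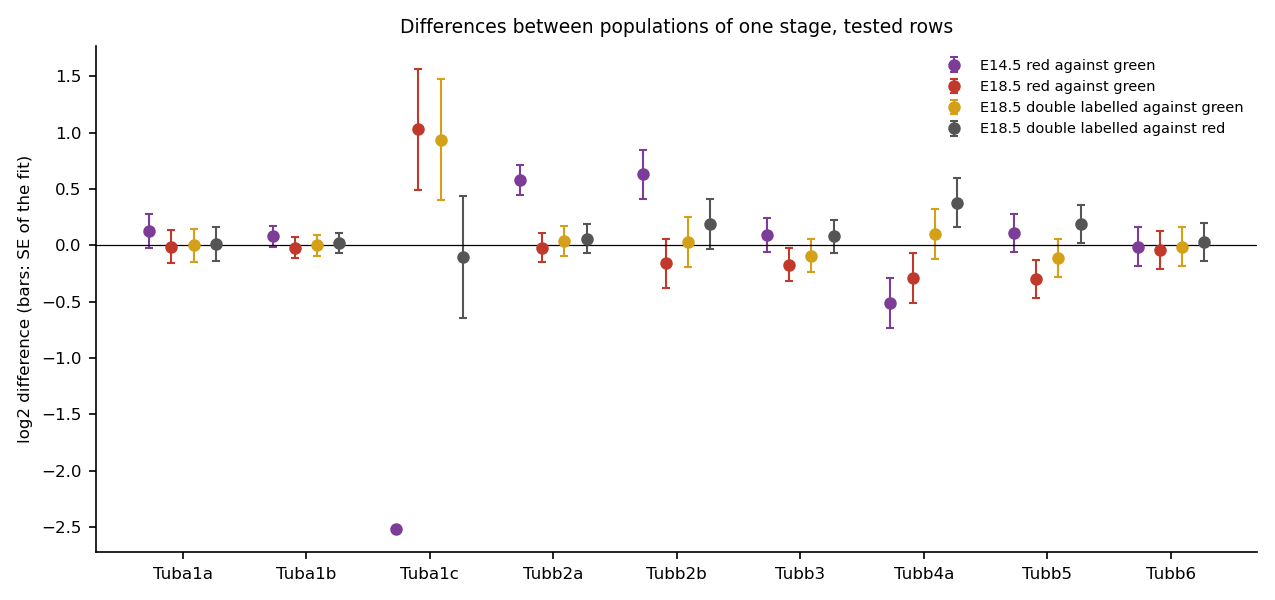
Log2 differences (vertical axis) of the 9 tubulin genes (horizontal axis) in the 4 comparisons of cell populations within a stage; bars are the SE of the limma fit, and Tuba1c at E14.5 has none because it was not tested. Tuba1c at E14.5 lies at -2.52, Tubb2a, Tubb2b and Tubb4a at E14.5 lie at 0.58, 0.63 and -0.51, and every E18.5 difference other than those of Tuba1c lies within 0.38 of 0.

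At E18.5, 0 of the 9 tubulins changed in red against green, double labelled against green or double labelled against red. The lowest limma adjusted p among the tubulins was 0.53, 0.84 and 1.0 in these comparisons, which share arrays. Few genes of any kind changed there: 0.613%, 0.0361% and 0.0902% of those tested, with 1666, 949 and 752 genes at an unadjusted p under 0.05. These values come from group means without pairing of replicates. With the replicate number as a block, double labelled against red had 32 genes past the threshold in place of 15, and still 0 tubulins. The median difference over the 9 tubulins was -0.04, 0.0 and 0.06. A tubulin count of 0 is therefore close to what these comparisons gave for genes at large.

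Among single genes at E18.5, Tubb2a spanned only 11.09 to 11.35 over the 9 arrays and Tuba1b 12.15 to 12.30. Tubb5 read 12.45, 12.48 and 12.45 in green and 11.66, 12.42 and 12.42 in red cells, with the red arrays all below the green ones. The Tubb5 difference of -0.30 (SE 0.17, limma adjusted p = 0.54) rested on red replicate 1, a narrow-range array, and was -0.04 without the narrow-range arrays. That array was also the lowest of the 9 E18.5 arrays for both rows of Tubb2b (10.87 and 9.98), for Tubb3 (11.40) and for the other row of Tubb5 (10.37), and for Tuba1c it was the highest of its group in the tested row (8.37) and the lowest in the other row (6.09).

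Between the stages, Tubb2a rose in both colours under each of the 3 scalings. On the deposited scale it went from 9.31 ± 0.16 to a range of 11.21 to 11.32 in green cells, a difference of 1.96, or 3.88-fold (SE 0.13, limma adjusted p = 7.8e-08). In red cells it went from 9.89 ± 0.28 to a range of 11.09 to 11.35, a difference of 1.36, or 2.56-fold (adjusted p = 2.8e-06). With array medians subtracted the rise was 1.33 in green (adjusted p = 4.7e-05) and 0.69 in red cells (adjusted p = 0.0078), and after quantile normalization 1.46 (8e-07) and 0.85 (0.00019). The rise was 0.60 smaller in red than in green cells, a difference that did not pass its own test (SE 0.19, adjusted p = 0.21).

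Tuba1a, the alpha tubulin of developing neurons, rose in green cells under each of the 3 scalings as well. It read 10.19, 10.48 and 10.21 at E14.5 and 11.42, 11.30 and 11.13 at E18.5, a difference of 0.99, or 1.98-fold (SE 0.15, limma adjusted p = 5.6e-05), of 0.36 with array medians subtracted (adjusted p = 0.047) and of 0.48 after quantile normalization (adjusted p = 0.035). Its other row rose by 1.23 (adjusted p = 3.8e-05), and its difference was 0.60 with array medians subtracted. In red cells the deposited values gave 0.85 (adjusted p = 0.00021), which no longer passed at 0.18 with medians subtracted (adjusted p = 0.34) and 0.38 after quantile normalization (adjusted p = 0.094).

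For the other tubulins the change with stage depended on the scaling. As deposited, 7 of 8 tubulins rose at E18.5 in green cells, where 73.5% of all genes changed and the median difference was 0.71 over the 8 against 0.60 over all genes. In red cells 5 of 9 were higher, where 72.4% of all genes changed and the medians were 0.42 and 0.60. With array medians subtracted, 28.6% of genes changed in green and 21.8% in red cells, and after quantile normalization 33.9% and 27.5%. The split over all genes in green cells went from 11818 higher and 408 lower as deposited to 2256 and 2498 with medians subtracted, and in red cells from 11865 and 176 to 1470 and 2163. Under both of these, Tubb2a and Tuba1a remained higher in green and Tubb2a in red cells, and Tuba1b became lower in red cells with medians subtracted (-0.32, adjusted p = 0.028). That makes 2 of 8 tubulins in green cells under both, and in red cells 2 of 9 with medians subtracted and 1 of 9 after quantile normalization.

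Tuba1b shows how narrow that margin is: it read 11.69 to 11.95 on the 6 E14.5 arrays and 12.15 to 12.30 on the 9 E18.5 arrays, a deposited rise of 0.35 in red and 0.45 in green cells that is smaller than the shift of the median gene. Tubb3 likewise rose by 0.74 in green and 0.48 in red cells as deposited, and differed by 0.12 and -0.19 with medians subtracted. Tubb6 went from a range of 5.34 to 5.99 to one of 5.98 to 6.45, and its difference of 0.46 in green and 0.42 in red cells turned to -0.17 and -0.25. Tubb4a passed in neither colour under any of the 3 scalings.

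**Figure D3:**
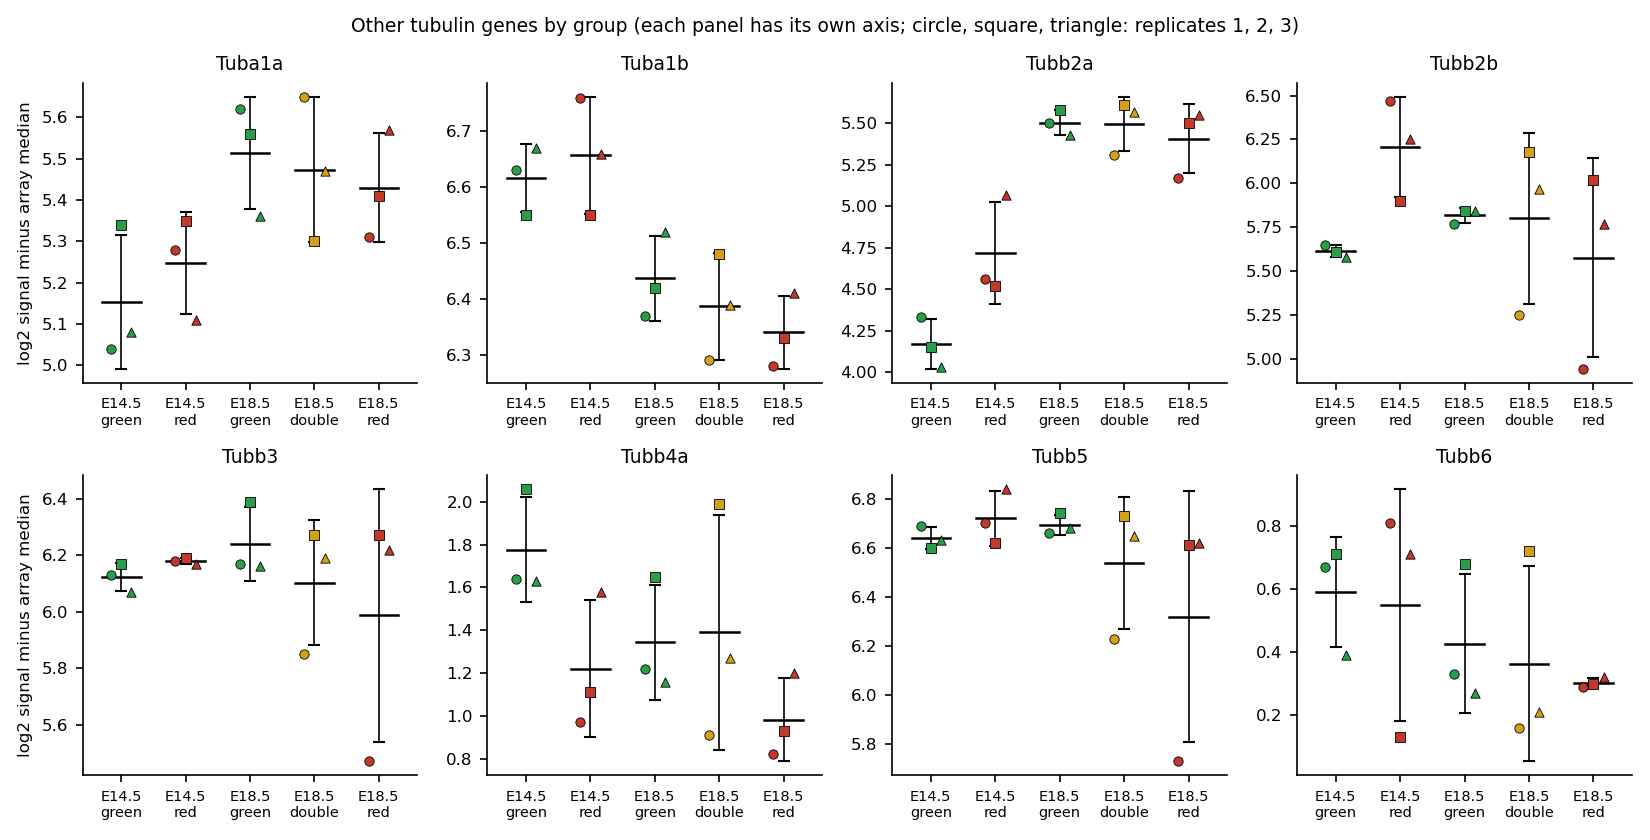
Log2 signal minus the array median (vertical axes, 1 per gene) of the tested row of the 8 tubulins other than Tuba1c in the 5 groups. Points are arrays, lines means and bars SD of 3 arrays; Tubb2a climbs from E14.5 green through E14.5 red to E18.5, and the circle of E18.5 red, a narrow-range array, lies low for Tubb2b, Tubb3 and Tubb5.

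**Figure D4:**
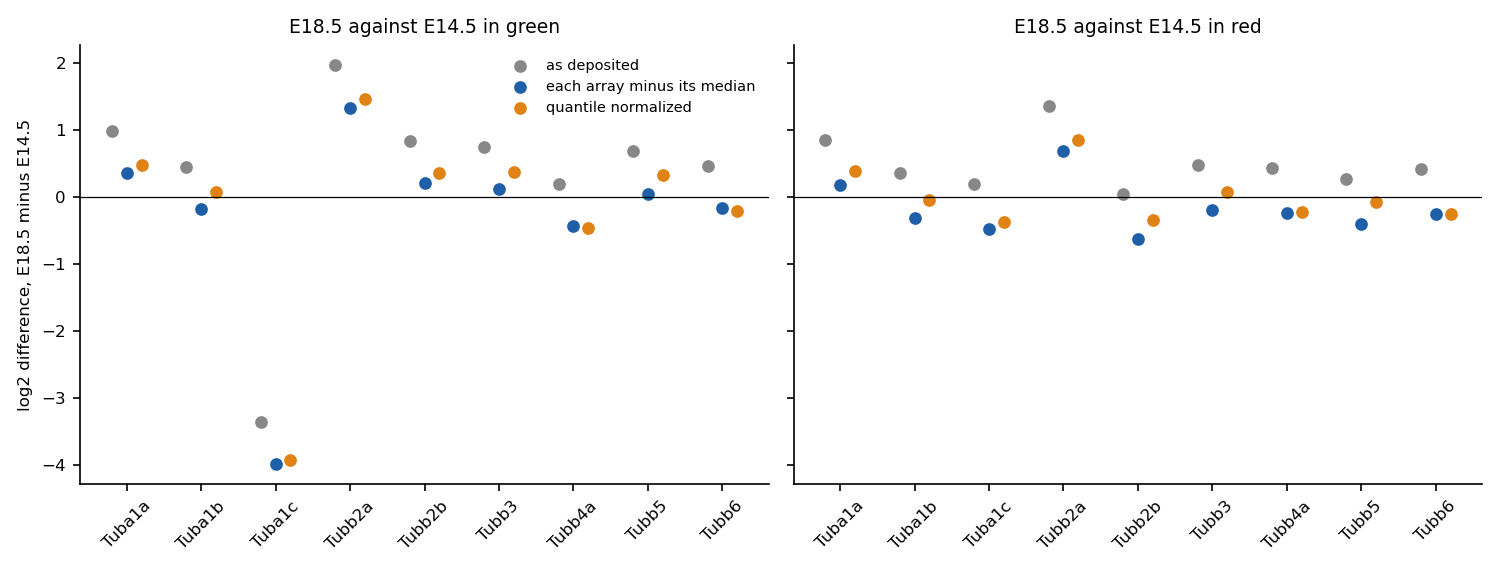
Log2 difference of E18.5 minus E14.5 (vertical axis) for the 9 tubulins (horizontal axis) in green and in red cells under 3 scalings. Tubb2a lies above 0 and Tuba1c in green cells below it under each scaling, at 1.96, 1.33 and 1.46 and at -3.36, -3.98 and -3.92, while with array medians subtracted Tuba1b, Tubb4a and Tubb6 change sign in green cells and, in red cells, all of the 9 but Tubb2a and Tuba1a do.

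The red against green difference was also compared between the stages. It changed for 1.05% of all genes and for 0 of the 8 tubulins (lowest limma adjusted p 0.21, for Tubb2a). For Tuba1c the change was 3.55 in the tested and 3.1 in the other row, given without a test.

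The genes that build, bind and use microtubules were followed beside the tubulins. At E14.5, where 1.89% of all genes were higher and 1.64% lower in red cells, 2 of 37 microtubule-associated proteins were higher in red than green cells, Mapt, which encodes tau, by 0.83 (limma adjusted p = 0.0012) and the doublecortin-like kinase gene Dclk1 by 0.47 (adjusted p = 0.037). Of 14 spindle and mitotic kinesin genes 5 were lower in red cells, the kinesins Kif11 (-0.86, adjusted p = 0.0009) and Kif23 (-0.82, adjusted p = 0.0021), the spindle factors Aspm (-0.41) and Tpx2 (-0.80) and the kinase gene Aurkb (-0.51), with a median difference of -0.43 over the 14 against 0.0 over all genes. Of 17 axonal motors only Kif21a changed (-0.65, adjusted p = 0.003). None of 6 other tubulins, 20 folding factors such as the prefoldins, 21 tubulin-modifying enzymes or 16 severing and nucleation factors passed. With array medians subtracted, 1.15% of all genes were higher in E14.5 red cells, and Mapt alone of the 37 microtubule-associated proteins passed. After quantile normalization 2.09% of all genes were higher, and 5 of the 37 passed, Mapt and Dclk1 among them.

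Cell markers moved in the same comparison. Of 12 cell cycle genes tested, 6 were lower in E14.5 red cells, among them Top2a (-1.89), Cdk1 (-1.20) and Mki67 (-1.17), and the summed linear signal of the list was 1185 to 1425 on green and 769 to 1025 on red arrays. Of 11 genes of maturing neurons, the synaptic Syt1 (0.92) and the neurofilaments Nefl (1.26) and Nefm (1.12) were higher in red cells. Of 11 genes of young neurons, Nhlh1 (-2.53) and Neurod1 (-0.63) were lower, and of 13 progenitor genes Slc1a3 was higher (1.01) and Nes lower (-0.54). The embryonic globin Hbb-y, the only erythroid gene tested, was higher in red cells by 1.46, with a signal of 74 to 145 on red and 34 to 38 on green arrays. Of 12 thalamic transcription factors Olig3 (-3.19), Lhx9 (-0.89) and Lhx2 (-1.03) were lower and Rora (1.06) higher in red cells, and of 6 astrocyte genes the glutamate transporter Slc1a2 was lower (-0.79). Of the microglial, oligodendrocyte, endothelial and meningeal lists 0 genes changed. The part of these differences in the levels of Tuba1c and Tubb2a was not tested.

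**Figure D5:**
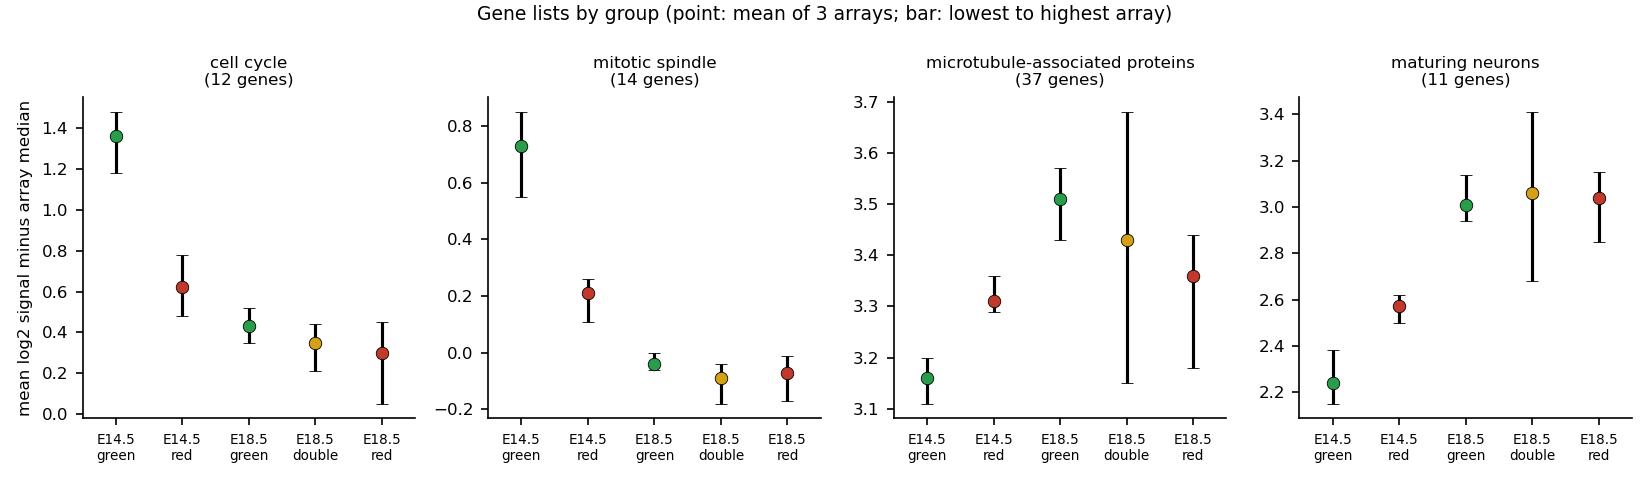
Mean log2 signal minus the array median (vertical axes) of 4 gene lists in the 5 groups; points are means of 3 arrays and bars run from the lowest to the highest array. Cell cycle and spindle lists are highest in E14.5 green cells, at 1.36 and 0.73, and the maturing neuron list is lowest there, at 2.24.

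At E18.5, 0 genes of the 7 microtubule lists changed in any of the 3 comparisons of populations. Without the narrow-range arrays, 1.28% of all genes changed in red against green and 0.234% in double labelled against red. Of the listed genes limma then called 2. The dynein chain gene Dync1i1 was higher in red than green cells by 0.71 (adjusted p = 0.032, and 0.26 with all arrays). The severing factor gene Fign was higher in double labelled than red cells by 0.90 (adjusted p = 0.038, and 0.48 with all arrays). Between stages in green cells, with array medians subtracted, 13.6% of all genes were higher and 2498 of 16635 lower, and 15 of 37 microtubule-associated proteins were higher and 2 lower, 13 of 14 spindle genes were lower and 8 of 12 cell cycle genes were lower. Map7d2, a partner of kinesin-1 (1.04, adjusted p = 4.4e-05), Map4 (0.91, adjusted p = 0.00055) and Tppp3, a tubulin polymerization promoting protein (1.37, adjusted p = 0.00022), rose in limma's test on that scale. In red cells, where 8.84% of all genes were higher and 13.0% lower, 7 of 37 were higher and 3 lower, and 5 of 14 spindle genes were lower. The deposited scale, on which 71.0% of all genes were higher in green and 71.3% in red cells, gave other counts, with 34 microtubule-associated proteins higher in green and 31 in red cells, and with spindle genes 1 higher and 4 lower in green but 9 higher and 0 lower in red cells. Of the 20 folding factors the prefoldin subunit Pfdn2 was higher and Tbcel lower in each colour with medians subtracted. Of the 21 modifying enzymes 4 were higher and 2 lower in green cells, among them the deglutamylase Agtpbp1 (0.80, adjusted p = 0.0045), and 1 was higher and 2 lower in red cells. Among axonal motors, Kif1a, a motor for synaptic vesicle precursors, rose by 1.25 in green and 0.93 in red cells on the same scale. Cdk5rap2, a centrosomal factor of microtubule nucleation, fell by 1.35 in green and by 1.26 in red cells.

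Of the other tubulins, Tuba8 was higher at E18.5 in red cells under each of the 3 scalings, and in green cells only as deposited. Tubb4b fell in both colours under each of the 3 scalings, in contrast to the rise of Tubb2a. Its difference as deposited was -0.40 in green (limma adjusted p = 0.014) and -0.52 in red cells (adjusted p = 0.0034), and -1.03 and -1.18 with array medians subtracted.

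For the remaining tubulins, the gene with the most similar values over the 15 arrays was Rab27a for Tuba1a (r 0.84), Rmdn1 for Tuba1b (0.943), Slco3a1 for Tubb2a (0.989), Rtn4rl1 for Tubb2b (0.927), Snapin for Tubb4a (0.896) and Sirt5 for Tubb6 (0.894). Tubb3 and Tubb5 had the same closest gene, Gdi2 (0.977 and 0.975), which encodes a regulator of Rab proteins. The r between the 2 rows of a gene was 0.54 for Tuba1a, 0.748 for Tubb2b and 0.974 for Tubb5.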

How the data were processed

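Total RNA of sorted thalamic cells was measured on 15 Affymetrix arrays, 3 in each of 5 groups. Per the labels' protocols, RNA was extracted with RNeasy columns, and 10 ng went into biotinylated cDNA (Nugen Ovation Pico WTA System V2). The submitters' processing notes name Affymetrix Expression Console, and its version and algorithm are not given in the sources used here. The values deposited by the authors are log2 signals between 4.15 and 13.2, and they were used without transformation. Why the stages differ in overall level is not given either. The number of arrays limits the precision of each value.

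Of 33794 rows, 23521 named 1 gene, 1814 several and 8459 none in the platform annotation. For the 1082 of 22180 genes with several rows, the row with the highest mean was tested. A filter removed the lowest 25% by mean (below 5.07) and left 16635. Group means were fitted to all 15 arrays with limma 3.58.1 in R 4.3.3 (two-sided moderated test, 10 residual and 13.9 total degrees of freedom), with Benjamini-Hochberg adjustment over the 16635 genes and a threshold of 0.05. Second rows of a gene were tested in a fit of every row that names 1 gene. The labels call the replicates biological, and p-values measure only the spread between them. A separate limma fit of group means was tried on simulated data for 1 comparison, E14.5 green against red. The filter, choice of rows, blocks and scalings were not part of that trial. Plots used matplotlib 3.10.9 under Python 3.11.15. Promoter windows came from RefSeq, and predicted genes were left out of likeness.

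The members and the gene lists were chosen with earlier results of these data known. All listed tubulins were named, and of each microtubule list up to 3 genes per comparison with the smallest adjusted p, with all 5 spindle genes at E14.5. Genes named between stages were narrowed, after values were seen, to those past the threshold with array medians subtracted too. At E14.5 cell markers were named where they passed, except some cell cycle genes. In the other comparisons most that passed were not named. Arrays of the same number were checked for pairing through their deviations from group means. E18.5 double labelled and red arrays correlated at 0.669, 0.496 and 0.487 and were taken as paired. The main fit nevertheless used group means without pairing, and the replicate block was run as an alternative. Arrays of the other comparisons within a stage correlated at 0.047 to 0.465, with at least 1 pair under 0.1, and were not taken as paired. Alternatives were quantile normalization, median subtraction, no filter on low values, every row, the compared groups only, a replicate block, leaving out the narrow-range arrays, and leaving out each replicate.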

Additional observations from a re-analysis of the deposited data

Results flagged for a closer look

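The other row of Tuba1c (17314693) had every E18.5 red array above every green one and every E14.5 red array below every green one, so that red minus green rose by 3.1 between the stages. The E18.5 part was 0.61 (limma adjusted p = 0.52), and in the tested row the E18.5 red and green arrays overlapped. The E14.5 green values are those by which the family was chosen, so the difference between the stages was not tested.

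The red minus green difference differed between the stages by limma's interaction test for 7 of 143 genes tested on the microtubule and cell cycle lists, and for 1.05% of all genes. For Top2a, a topoisomerase of dividing cells, it was 0.16 at E18.5 and -1.89 at E14.5, a difference of 2.05 (adjusted p = 0.0023). For Mki67 it was 0.44 and -1.17, a difference of 1.61 (adjusted p = 0.012). For the cyclin gene Ccna2 the difference was 1.34 (adjusted p = 0.029), for the mitotic kinase gene Cdk1 1.18 (0.0078), for Kif23 0.97 (0.016) and for Kif11 0.91 (0.017). For Mapt it was 0.03 at E18.5 and 0.83 at E14.5, a difference of -0.80 (adjusted p = 0.034).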

How the results depend on the processing

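The 0 tubulins past the threshold in each comparison within E18.5 and in the stage difference stayed at 0 under every alternative run, replicate block included, and the block changed the call of no tubulin other than Tubb2b. At E14.5 the count for red against green, 1, became 0 with array medians subtracted, and 2, with Tubb2b, in a fit of the compared arrays only (Tubb2b adjusted p = 0.02), with the replicate block (0.047, the numbers not being taken as paired there) and without the narrow-range arrays. Leaving out single replicates gave 0 to 1. Between stages in red cells the count of 5 became 2 with medians subtracted, 1 after quantile normalization and 3 with only the compared arrays. Leaving out single replicates gave 3 to 6, with 3 without E18.5 red replicate 2 or 3, where Tubb3 and Tubb6 no longer passed. In green cells the count of 7 became 2 with medians subtracted and 2 after quantile normalization, and 6 to 7 without single replicates.

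The direction turned in red cells with medians subtracted for Tuba1b (-0.32), Tubb3 (-0.19) and Tubb6 (-0.25), and after quantile normalization for Tuba1b (-0.04) and Tubb6 (-0.25). In green cells it turned with medians subtracted for Tuba1b (-0.18) and Tubb6 (-0.17), and after quantile normalization for Tubb6 (-0.21). The medians differ between the stages. Subtracting them took the median difference over all genes from 0.605 to -0.021 in green and from 0.596 to -0.071 in red cells. In red cells the median gene thus ended slightly below 0. Of 873 alternative values of single genes, 25 lost a call without a change of sign, 7 gained one and 8 turned. Of those that turned, only Tuba1b in red cells with medians subtracted passed (limma adjusted p = 0.028), so the rest lost their call too. A change of sign of a difference past the threshold in neither fit was not counted as a turn.

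Counts over all genes moved by more than 1.5 times as well. For E14.5 red against green, 586 became 1367 with only the compared arrays, 1434 without the narrow-range arrays and 247 to 527 without single replicates. For E18.5 red against green, 102 became 6 with only the compared arrays, 234 with the replicate block, 213 without the narrow-range arrays and 51 to 100 without single replicates. For double labelled against green, 6 became 0 with only the compared arrays, 12 with the block, 35 without the narrow-range arrays and 0 to 8 without single replicates. For double labelled against red, 15 became 0, 32, 39 and 7 to 21 under the same settings. For the stage difference, 175 became 312, 343, 486 and 76 to 214. Between stages, 12226 in green cells became 4754 with medians subtracted and 5635 after quantile normalization, and 12041 in red cells 3633 and 4579. The cause was not tested.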

Other observations

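Of the rows not used above, 2 named a listed tubulin together with another gene, and their signal cannot be assigned to either. The row of Tuba4a, an alpha tubulin of mature tissues, and the kinase gene Stk16 read 5.71 to 5.76 in E14.5 green and 5.46 to 5.80 in E14.5 red cells. At E18.5 it read 7.28 to 7.71 in green, 7.11 to 8.56 in double labelled and 6.84 to 8.07 in red cells. Relative to the array median its means were 0.59 and 0.49 at E14.5 and 1.75, 2.15 and 1.72 at E18.5. The row of Tuba1b and the predicted gene Gm5620 read 5.71 to 6.12 in E14.5 green, 5.68 to 6.21 in E14.5 red, 6.90 to 7.0 in E18.5 green, 6.14 to 7.41 in double labelled and 5.17 to 6.85 in E18.5 red cells.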
